A study of Mus musculus with 6 samples.

Results

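The 4 kinases that phosphorylate the initiation factor eIF2 on its alpha subunit, and 6 genes that act beside or after them, were followed in erythroid progenitors with and without the repressor Bcl11a. The set was chosen by name, with earlier results of these data known: Eif2ak1, Eif2ak2, Eif2ak3, Eif2ak4, Gcn1, Atf4, Ddit3, Ppp1r15a, Ppp1r15b and Trib3. Every probe set annotated to 1 of these gene symbols alone was taken, which gave 28 of the 45037 probe sets on the array, and each of the 10 genes had at least 1. RNA was taken from CD71+ Ter119+ cells sorted from the bone marrow of 6-week-old female mice, 1 Affymetrix array per mouse. The knockout group was 3 mice of genotype Bcl11a fl/fl EpoR-Cre+, in which Cre is driven from the erythropoietin receptor gene, and the control group was 3 Bcl11a +/+ mice. The labels name Cre for the knockout mice alone, so the consequences of Cre and those of Bcl11a loss cannot be told apart.

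Phosphorylated eIF2 alpha slows the translation of most mRNAs while favouring a few, such as that of the transcription factor ATF4, a programme called the integrated stress response. Each kinase senses a different stress. HRI, the product of Eif2ak1, is the heme-regulated kinase of the red cell lineage, which restrains globin synthesis when heme is short. Most of this control acts on protein and phosphorylation, and arrays measure the mRNA alone.

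One probe set of Gcn1 rose in the knockout, to 2.89 times the control mean, and it was the 1 of the 28 member probe sets that passed the test over all probe sets (limma with Benjamini-Hochberg adjustment, adjusted p = 0.0191). That call was lost in 7 of 14 alternative fits, 5 of them with 1 mouse left out. Over the whole array, 66 probe sets passed, or 0.147%, 63 of them higher (0.14%) and 3 lower (0.00666%). The brightest probe set of Eif2ak1 had 1.71 times the control mean in the knockout and that of the phosphatase gene Ppp1r15a had 1.42 times, both with groups that did not overlap and neither past the test. The group means of Eif2ak4 lay close together in both of its probe sets. In the knockout, 12 of the 28 member probe sets had all 3 values above all 3 control values, 4 had all 3 below, and 12 overlapped. Over the whole array the groups were apart in 19.5% of probe sets, in 10.6% with the knockout above and in 8.91% below. An unadjusted p under 0.05 was found for 12 of the 28, against 12.4% of all probe sets. The median log2 change, knockout minus control, was 0.21 over the 28 and -0.0064 over all probe sets. The members were chosen with earlier results of these data known, so these counts and medians are no independent test of the set. Probe sets of 1 gene share its RNA and are not independent, and the exact permutation p of a single probe set cannot go below 0.1 with 3 mice against 3.

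**Figure D1:**
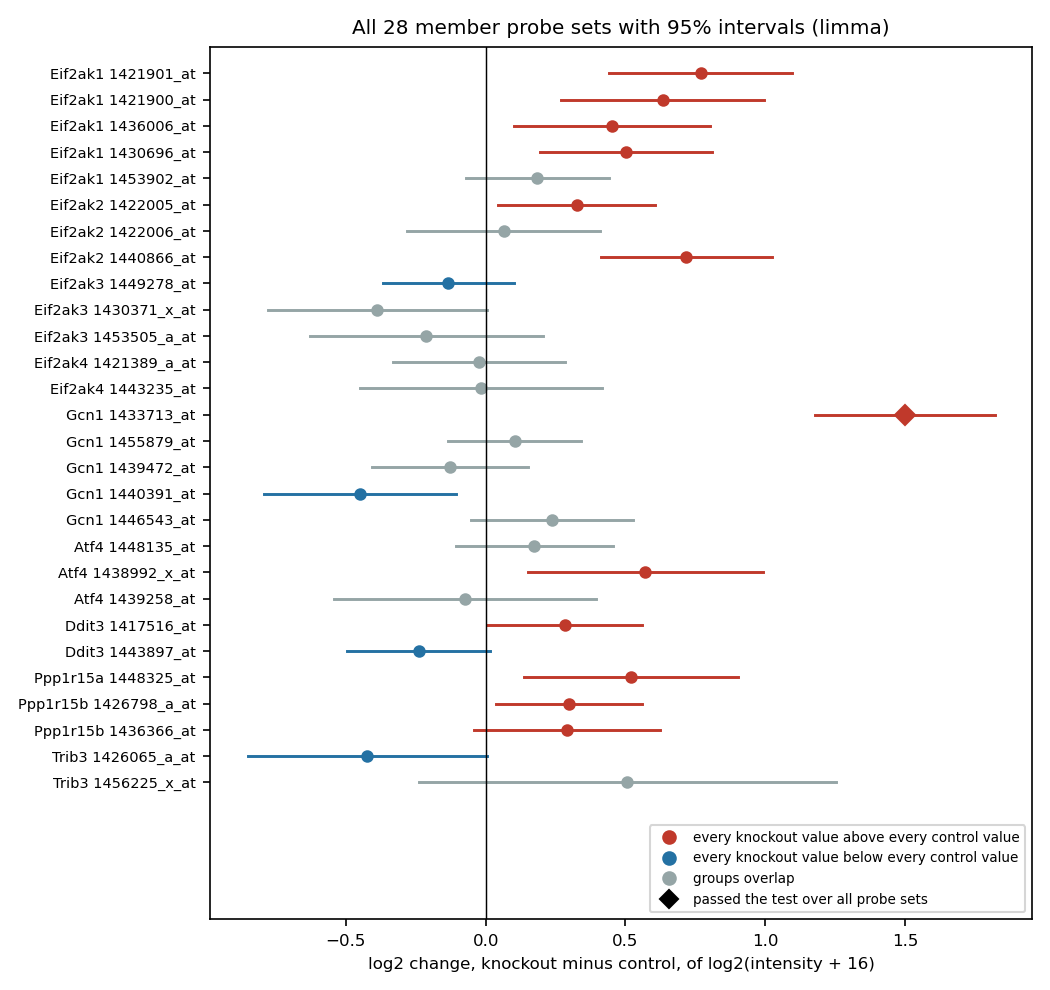
Log2 change, knockout minus control, on the log2(intensity + 16) scale for the 28 member probe sets, with 95% intervals from limma; colour shows whether the groups overlap and the diamond marks the probe set that passed. All 5 Eif2ak1 probe sets lie above 0, both Eif2ak4 probe sets lie near 0, and the Gcn1 probe set at 1.50 stands apart from the other 4 of that gene.

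The DNA before the gene is shown for Eif2ak1, Gcn1 and Ppp1r15a, picked after their values were seen. Eif2ak2, with 1.04 to 1.70 times the control mean over its probe sets, was not picked. The stretches before the first annotated base are from RefSeq on build GRCm38.p6, given 5′ to 3′ along each gene's strand. They lie at chr5:143817542-143817791 on the plus strand for Eif2ak1, chr5:115565013-115565116 on the plus strand for Gcn1 and chr7:45526269-45526518 on the minus strand for Ppp1r15a. Capitals mark matches to the motifs searched.
Eif2ak1: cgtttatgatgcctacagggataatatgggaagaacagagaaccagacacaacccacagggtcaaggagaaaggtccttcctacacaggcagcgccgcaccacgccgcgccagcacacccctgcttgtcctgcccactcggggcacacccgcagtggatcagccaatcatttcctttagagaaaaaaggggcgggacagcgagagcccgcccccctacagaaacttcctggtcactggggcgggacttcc
Gcn1: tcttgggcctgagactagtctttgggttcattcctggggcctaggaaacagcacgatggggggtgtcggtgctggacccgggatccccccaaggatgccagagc
Ppp1r15a: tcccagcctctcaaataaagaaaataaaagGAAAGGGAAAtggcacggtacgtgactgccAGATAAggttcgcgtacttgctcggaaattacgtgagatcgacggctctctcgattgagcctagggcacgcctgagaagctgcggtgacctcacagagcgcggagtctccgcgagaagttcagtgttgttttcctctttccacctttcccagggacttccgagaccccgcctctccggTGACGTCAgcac

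Windows of 250 bases before a start were found for 9 of the 10 genes, not Ppp1r15b, and were searched on both strands for 6 motifs that did not overlap where found. For Eif2ak3, Eif2ak4 and Gcn1 the start used lay after the first annotated base, so their windows ran into the annotated gene. The 104 bases printed for Gcn1 are the part of its window before the gene. The ATF4 composite element TGATGNAAN was in none of the 9 genes and in 3.44% of all 32851 windows, and the endoplasmic reticulum stress element, CCAAT and CCACG with 9 bases between them, in none of the 9 and in 0.113%. Ppp1r15a held 3 matches. They were the cyclic AMP element TGACGTCA (1.55% of windows) 12 to 5 bases before the start, AGATAA, the core that GATA factors bind (9.99%), and the core of the interferon-stimulated element, GAAA and GAAA with 2 bases between them (2.98%). The Krüppel-type CACC box CCACACCC (3.2%) was found before Eif2ak4 alone among the 9, and the windows of Eif2ak1 and Gcn1 held none of the 6. No match means that these letters are not in this window, and a match is no evidence of binding.

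Eif2ak1 was read by 5 probe sets, all with log2 changes above 0, from 0.18 to 0.77. The brightest (1421901_at) had intensities of 4813, 5708 and 5832 in the knockout mice, against 3538, 2805 and 3245 in the control mice. The lowest knockout mouse thus lay above the highest control mouse, and the log2 change was 0.77 ± 0.14 (SE, n = 3 mice per group, 95% interval 0.44 to 1.10, limma adjusted p = 0.131). A second probe set designed from the same sequence record (1421900_at) had 1659, 2044 and 2047 in the knockout mice and 1410.0, 1056 and 1232 in the control mice, a log2 change of 0.63 ± 0.15. Probe sets 1436006_at and 1430696_at had log2 changes of 0.45 ± 0.15 and 0.50 ± 0.13, and in both the groups did not overlap. The dimmest, 1453902_at, had 119.88, 132 and 135 in the knockout mice and 106, 107 and 122 in the control mice, so that 1 knockout value lay within the control range, with a log2 change of 0.18 ± 0.11. In 4 of the 5 probe sets control mouse 2 was the lowest of the 6 mice, and in all 5 knockout mouse 3 was the highest. None of the 5 passed (limma adjusted p = 0.131 to 0.529). With an intensity trend and robust moderation, under which 3.21% of all probe sets passed, 2.68% as higher and 0.531% as lower, 3 of the 5 did: 1421901_at (adjusted p = 0.00048), 1421900_at (adjusted p = 0.00672) and 1430696_at (adjusted p = 0.0353).

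Of 7 measured erythroid marker genes, none passed (limma, 4 with an unadjusted p under 0.05), 5 had groups apart with the knockout higher, 2 had overlapping groups and log2 changes below 0, and the median log2 change was 0.38. Of all 18193 genes by the brightest probe set, 2318 had an unadjusted p under 0.05 (limma). Groups were apart with the knockout higher in 12.4% of these genes and with it lower in 9.22%. The summed intensity of the 7 markers was 80357, 84770 and 87362 in the knockout mice and 77578, 64394 and 72692 in the control mice. The order of the 6 mice by this sum was the same as their order by 3 of the 5 Eif2ak1 probe sets and by Ppp1r15a. It differed for every other member probe set. For the Gcn1 probe set that passed and the brighter one of Ppp1r15b, the difference was only that knockout mice 2 and 3 changed places. Epb42, which encodes the membrane skeleton protein 4.2, had a log2 change of 0.75 ± 0.15, the transcription factor Gata1 one of 0.70 ± 0.17 and Klf1, the erythroid Krüppel-like factor, one of 0.65 ± 0.19 (limma adjusted p = 0.158, 0.216 and 0.273). The 2 below 0 were Epor, the erythropoietin receptor, with -0.14 ± 0.21, and Alas2, the first enzyme of erythroid heme synthesis, with -0.060 ± 0.093. The part of these shifts in the values for Eif2ak1 was not tested, and in sorted bulk RNA fewer cells of a type and less RNA per cell cannot be told apart.

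Eif2ak2, which encodes PKR, the kinase activated by double-stranded RNA and induced by interferon, had log2 changes above 0 in its 3 probe sets, of unequal size. Probe set 1440866_at had 281, 257 and 304 in the knockout mice, against 154, 189.53 and 151 in the control mice, a log2 change of 0.72 ± 0.13 (SE, limma adjusted p = 0.131). The brightest, 1422005_at, had 1217, 1160.1 and 1350.0 in the knockout mice and 1005, 1067 and 894 in the control mice, a log2 change of 0.33 ± 0.12. In both the groups did not overlap. The third, 1422006_at, which shares its source record with the brightest, had 516, 536 and 560.5 in the knockout mice inside a control range of 431 to 609.7, with a log2 change of 0.064 ± 0.14. None of the 3 passed, and 1440866_at did with an intensity trend and robust moderation (adjusted p = 0.00733).

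Eif2ak3 encodes PERK, the kinase of the endoplasmic reticulum that responds to unfolded protein, and its 3 probe sets had log2 changes below 0. The brightest, 1449278_at, had 907, 1006 and 909 in the knockout mice, against 1010.3, 1058 and 1030.1 in the control mice. The highest knockout mouse lay just under the lowest control mouse, and the log2 change was -0.13 ± 0.097 (SE, 95% interval -0.37 to 0.10, limma adjusted p = 0.625). The other 2, which share a source record, had group means between 19.2 and 30.7, below the array medians of 67.5 to 70.9, with log2 changes of -0.39 ± 0.16 and -0.21 ± 0.17 and overlapping groups. The one at -0.39, 1430371_x_at, is of a class that Affymetrix marks as possibly cross-hybridising.

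Eif2ak4 encodes GCN2, the kinase that senses uncharged tRNA when amino acids are short. Its brighter probe set had 191, 160.5 and 157 in the knockout mice and 153, 189.95 and 174 in the control mice. These values are interleaved, and the log2 change was -0.023 ± 0.13 (SE, 95% interval -0.33 to 0.28, limma adjusted p = 0.962). The dimmer one had a log2 change of -0.017 with an interval from -0.45 to 0.41. Changes within these intervals could not be told from none. Larger changes can also go uncalled over all probe sets: the log2 change of 0.77 ± 0.14 in Eif2ak1 1421901_at did not pass.

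**Figure D2:**
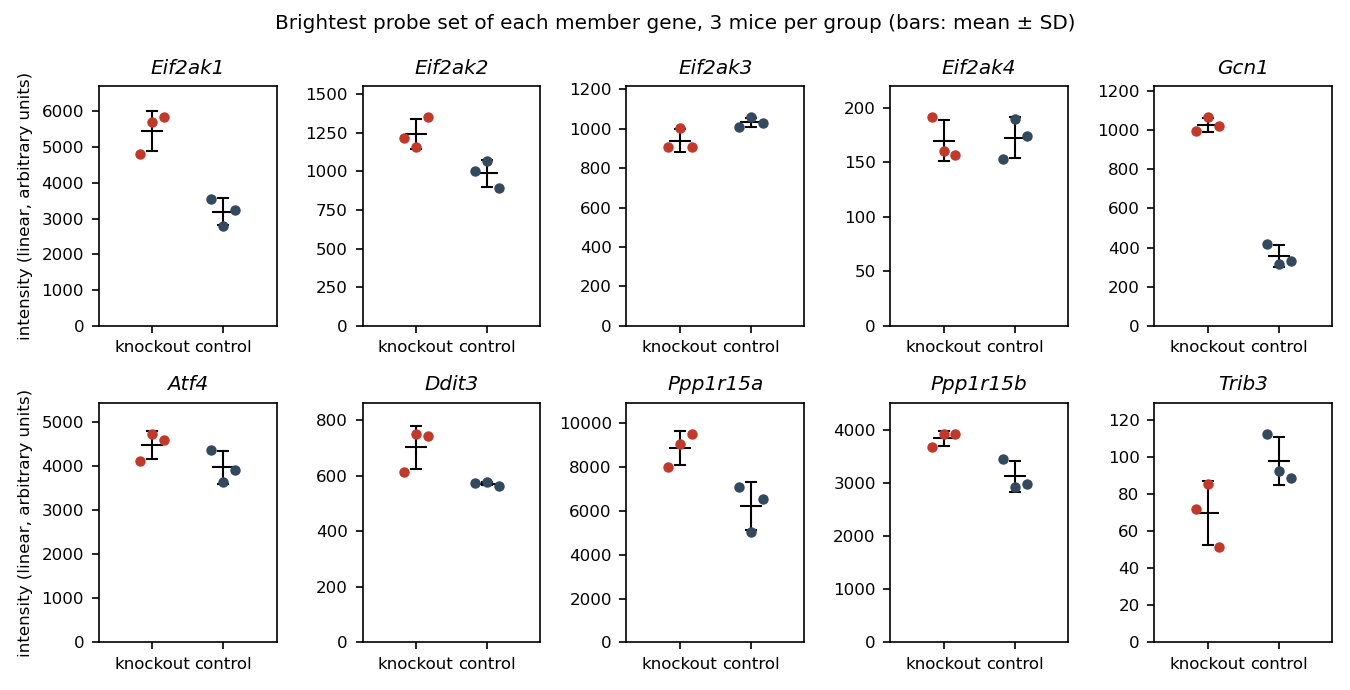
Intensity on a linear axis from 0 for the brightest probe set of each of the 10 genes, with 1 point per mouse and the mean ± SD as bars, knockout at the left of each panel. The groups are apart for Gcn1, Eif2ak1, Eif2ak2, Ddit3, Ppp1r15a and Ppp1r15b (knockout higher) and for Eif2ak3 and Trib3 (knockout lower), and they overlap for Eif2ak4 and Atf4.

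Gcn1, whose product binds ribosomes and GCN2 and is needed for GCN2 to be activated by amino acid shortage, was read by 5 probe sets that differed. Probe set 1433713_at had 994, 1065 and 1021 in the knockout mice, against 419.9, 314.5 and 331 in the control mice. The mean was 1027 ± 35.9 in the knockout and 355 ± 56.7 in the controls (SD, n = 3 each), the lowest knockout value lay far above the highest control value, and the log2 change was 1.50 ± 0.13 (SE, 95% interval 1.18 to 1.82, limma adjusted p = 0.0191). It stood at rank 42 of all probe sets by p.

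The other 4 Gcn1 probe sets were dim and none passed. Their control means, from 30.6 to 62.6, lay below the array medians. Probe set 1455879_at had 69.2, 69.1 and 66.8 in the knockout mice and 58.2, 68.3 and 61.4 in the control mice, a log2 change of 0.10 ± 0.098 (SE, limma adjusted p = 0.719). The overlap came from control mouse 2, which lay between knockout mice 2 and 3. Probe set 1446543_at had 32.2, 42.4 and 42.8 in the knockout mice and 31.3, 32.8 and 27.7 in the control mice, a log2 change of 0.24 ± 0.12. Probe set 1439472_at had 42.5, 36.8 and 40.3 in the knockout mice and 39.4, 51.9 and 44.4 in the control mice, a log2 change of -0.13 ± 0.12. Probe set 1440391_at ran against the one that passed. It had 31.9, 32.0 and 35.4 in the knockout mice and 64.95, 43.4 and 46.5 in the control mice, every knockout value below every control value, a log2 change of -0.45 ± 0.14 (limma adjusted p = 0.305).

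The 5 Gcn1 probe sets were each designed from a different sequence record. No source used here gives the place of each in the gene, and the values hold no detection calls, so the 4 dim ones cannot be told from background. The call of 1433713_at ended without knockout mouse 1, 2 or 3 (adjusted p = 0.144, 0.168 and 0.151) and without control mouse 2 or 3 (adjusted p = 0.107 and 0.134), while it held without control mouse 1 (adjusted p = 0.024), and the log2 change lay between 1.42 and 1.62 in these 6 fits. A pseudocount of 1 in place of 16 also ended it (adjusted p = 0.0648).

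**Figure D3:**
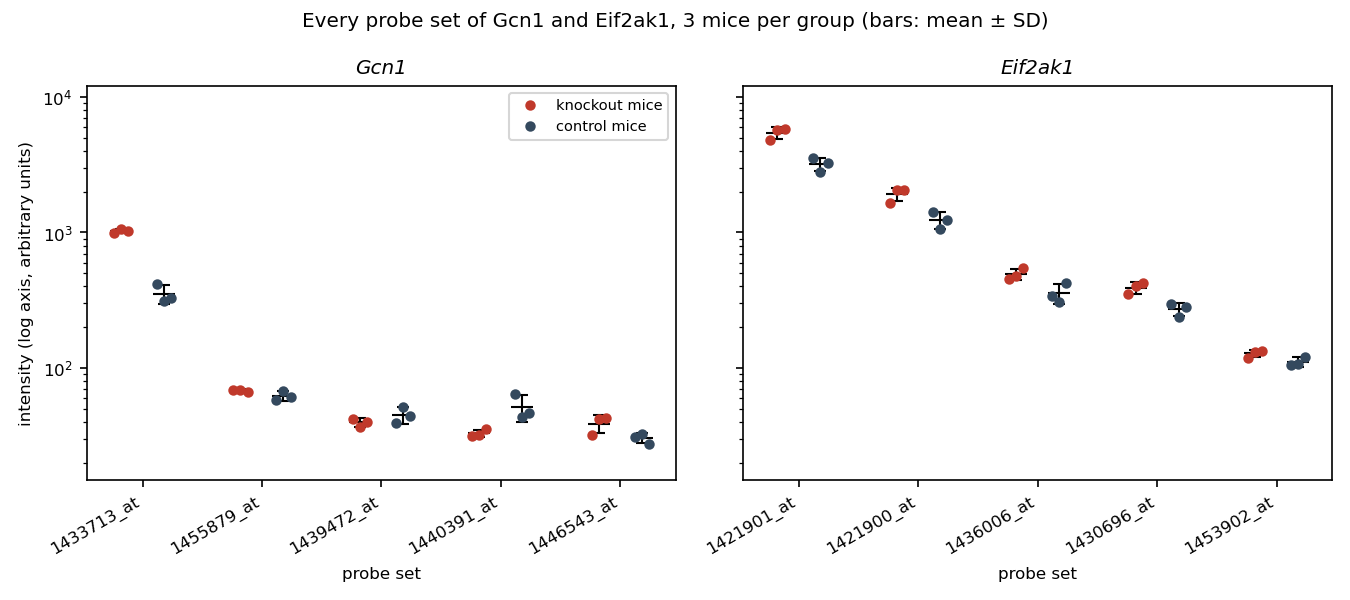
Intensity on a log axis for the 5 probe sets of Gcn1 and the 5 of Eif2ak1, with 1 point per mouse and the mean ± SD as bars, knockout mice left of control mice for each probe set. The groups are widely apart in Gcn1 1433713_at alone among the Gcn1 probe sets, and 4 of the 5 Eif2ak1 probe sets show knockout values all above the control values.

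Atf4 encodes the transcription factor whose translation rises when eIF2 alpha is phosphorylated. Its brightest probe set, 1448135_at, had 4127, 4739 and 4593 in the knockout mice, against 4379.85, 3648 and 3908 in the control mice. Control mouse 1 lay above knockout mouse 1, and the log2 change was 0.17 ± 0.12 (SE, 95% interval -0.11 to 0.46, limma adjusted p = 0.592). Probe set 1438992_x_at, of a class that Affymetrix marks as possibly cross-hybridising, had 1467, 1421 and 1424 in the knockout mice and 762, 1213 and 962 in the control mice. Its groups did not overlap and the control values spread far more widely, with SDs of 25.5 in the knockout and 226 in the controls. The log2 change of 0.57 ± 0.17 did not pass (limma adjusted p = 0.291), and it did with an intensity trend and robust moderation (adjusted p = 0.0355). The third probe set had intensities between 1.59 and 12.2 in all 6 mice, too dim to compare.

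Ddit3, which encodes CHOP, a pro-apoptotic transcription factor that ATF4 induces, had 2 probe sets of opposite direction. Probe set 1417516_at had 612, 751 and 742 in the knockout mice and 575, 576 and 564 in the control mice, all higher in the knockout, with a log2 change of 0.28 ± 0.11 (SE, limma adjusted p = 0.394). Probe set 1443897_at had 423, 451 and 454 in the knockout mice and 569, 533 and 479 in the control mice, all lower in the knockout, with a log2 change of -0.24 ± 0.11 (limma adjusted p = 0.427). These data therefore give no direction for Ddit3.

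Phosphorylated eIF2 alpha is reset by a phosphatase whose targeting subunits are GADD34, from Ppp1r15a, which the stress response induces, and CReP, from Ppp1r15b, which is made constitutively. Ppp1r15a had 1 probe set, with 8009, 9057 and 9506 in the knockout mice and 7096, 5015 and 6549.7 in the control mice. Every knockout value was higher, the means were 8857 ± 769 in the knockout and 6220.2 ± 1079 in the controls (SD, n = 3 each), and the log2 change was 0.52 ± 0.16 (SE, 95% interval 0.14 to 0.90, limma adjusted p = 0.291). It passed with an intensity trend and robust moderation (adjusted p = 0.0368).

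In both probe sets of Ppp1r15b all 3 knockout values exceeded all 3 control values. The brighter had 3683, 3935 and 3927 in the knockout mice and 3463, 2939 and 2996 in the control mice, a log2 change of 0.30 ± 0.11 (SE, limma adjusted p = 0.353). The dimmer had 113, 106 and 134 in the knockout mice and 99.0, 102 and 79.0 in the control mice, a log2 change of 0.29 ± 0.14. The 2 probe sets thus gave nearly the same change at very different intensities, and neither passed.

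Trib3, a pseudokinase that ATF4 and CHOP induce and that acts back on both, was dim, and its 2 probe sets pointed in opposite directions. The brighter had 72.0, 85.9 and 51.6 in the knockout mice and 113, 92.4 and 88.6 in the control mice, all lower in the knockout, with a log2 change of -0.42 ± 0.18 (SE, limma adjusted p = 0.409). The dimmer, also marked as possibly cross-hybridising, had 74.1, 62.0 and 41.4 in the knockout mice and 46.3, 51.8 and 17.3 in the control mice, with overlapping groups and a log2 change of 0.51 ± 0.31.

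The wider pathway was read through 6 lists of genes, each gene by its brightest probe set, and no gene of these lists passed over all probe sets. The lists too were chosen with earlier results of these data known, so their counts and medians are no independent test. Of the genes named below, Eif2s3x, Drg1, Tarbp2 and Phgdh were read by probe sets of the class marked as possibly cross-hybridising. Over all 18193 genes the median log2 change was -0.0010, 12.4% had every knockout value above every control value and 9.22% had every value below, and 39 genes (0.214%) passed. An unadjusted p under 0.05 was found for 2318 of these genes (limma). Of 7 measured subunits of eIF2 and its exchange factor eIF2B, none passed (limma, 1 with an unadjusted p under 0.05), and the median was 0.072. The alpha subunit, which the kinases phosphorylate, was not among the 7. Eif2s2, the beta subunit of eIF2, had 6706, 7621 and 7302 in the knockout mice and 6041, 5985 and 6028 in the control mice, a log2 change of 0.26 ± 0.098 (SE, limma adjusted p = 0.366). Eif2s3x, the gamma subunit, had 0.19 ± 0.092, and the eIF2B genes Eif2b3 and Eif2b4 had -0.11 ± 0.095 and 0.081 ± 0.11.

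Of 16 partners and modulators of the kinases and the phosphatase, none passed (limma, 1 with an unadjusted p under 0.05), 2 had knockout values all higher and 2 all lower, and the median was 0.0076. Impact, whose product competes with GCN2 for GCN1, had 180.4, 229.6 and 339 in the knockout mice and 385, 429 and 340.3 in the control mice. Knockout mouse 3 lay just under control mouse 3, the log2 change was -0.63 ± 0.23 (SE, limma adjusted p = 0.350), and another of its 3 probe sets had 0.020. The GTPase gene Drg1 had a log2 change of 0.28 ± 0.12, Tarbp2, whose product binds double-stranded RNA and inhibits PKR, had 0.34 ± 0.16, and Hsp90aa1, of the chaperone that HRI depends on, had 0.17 ± 0.095.

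Of 18 targets of ATF4 in amino acid and one-carbon metabolism, none passed (limma, 6 with an unadjusted p under 0.05), 6 had knockout values all higher and 2 all lower, and the median was 0.11. Slc6a9, the glycine transporter that feeds heme synthesis, had 1540.0, 1783 and 1894 in the knockout mice and 1182, 698 and 962 in the control mice, a log2 change of 0.89 ± 0.20 (SE, limma adjusted p = 0.204). Slc3a2, the heavy chain of amino acid exchangers, had 2524, 2990.3 and 3007 in the knockout mice and 2056, 1608 and 1802 in the control mice, a log2 change of 0.64 ± 0.14 (limma adjusted p = 0.179). Pck2, the mitochondrial phosphoenolpyruvate carboxykinase, had 0.54 ± 0.11. Phgdh, the first enzyme of serine synthesis, went the other way, with 1628, 1313 and 1237 in the knockout mice, against 1852, 2089 and 2105 in the control mice, a log2 change of -0.54 ± 0.14 (limma adjusted p = 0.229), and all 4 of its probe sets had changes below 0.

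Of 13 genes of tRNA charging and export, none passed (limma, 2 with an unadjusted p under 0.05), 5 had knockout values all higher and 1 all lower, and the median was 0.12. Nars and Aars, the asparaginyl and alanyl synthetases, had log2 changes of 0.35 ± 0.11 and 0.40 ± 0.14 (SE, limma adjusted p = 0.307 and 0.333), the tRNA exporter Xpot had 0.20 ± 0.098 and the cysteinyl synthetase Cars 0.26 ± 0.13. Of 22 regulatory and stress targets of ATF4 and CHOP, none passed (limma, 4 with an unadjusted p under 0.05), 3 had knockout values all higher and 4 all lower, and the median was -0.015. Atf3, a transcription factor that ATF4 induces, had 239.5, 158 and 196 in the knockout mice and 432, 476 and 270.2 in the control mice, a log2 change of -0.91 ± 0.24 (limma adjusted p = 0.241). Sqstm1, the autophagy receptor p62, had 0.51 ± 0.16, but its second probe set had -0.34. Herpud1, of endoplasmic reticulum protein degradation, had -0.30 ± 0.10 and the transcription factor gene Cebpa -0.30 ± 0.12.

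Taking the 3 ATF4 target lists as 53 genes, 14 had knockout values all higher, 7 all lower and 32 overlapped, and the median was 0.038. With an intensity trend and robust moderation, 6 of the 53 passed as higher, namely Slc3a2, Pck2, Slc6a9, Slc7a5, Nars and Sqstm1, and 2 as lower, Phgdh and Atf3. Over all genes by the brightest probe set, that fit called 4.23%, 3.62% as higher and 0.605% as lower. The 15 genes of the IRE1 and ATF6 branches, which respond to unfolded protein beside PERK, had a median of -0.068 with none past the test (limma, 3 with an unadjusted p under 0.05), none with knockout values all higher and 5 with all lower. These 5 were Dnajb9 (-0.40 ± 0.13), Creld2 (-0.26 ± 0.089), Sdf2l1 (-0.24 ± 0.092), Pdia6 (-0.20 ± 0.10) and Edem1 (-0.19 ± 0.099). Hspa5, the chaperone BiP, had 0.046, and the second probe set of Pdia6 had 0.34.

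**Figure D4:**
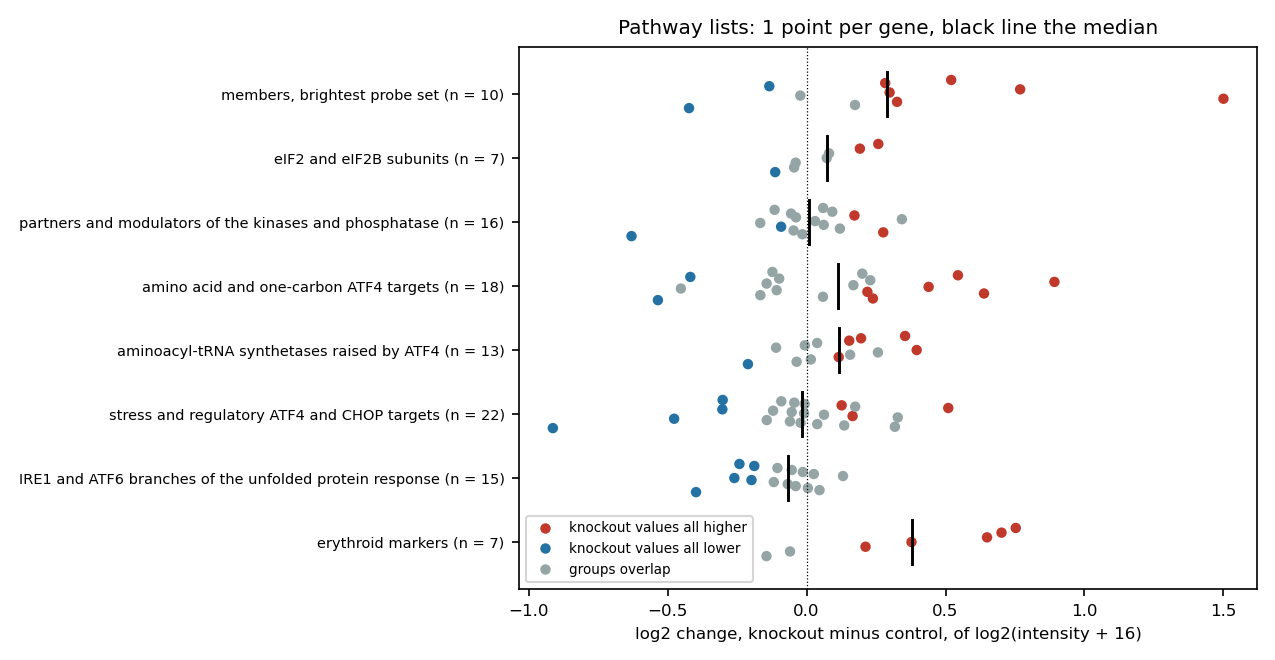
Log2 change, knockout minus control, on the log2(intensity + 16) scale, with 1 point per gene by its brightest probe set for the 10 members, 6 pathway lists and the erythroid markers, coloured by whether the groups overlap, with the median as a black line. The medians of the ATF4 target lists lie between -0.015 and 0.12, and that of the erythroid markers at 0.38.

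The arrays had medians between 67.6 and 68.4 in the knockout mice and between 67.5 and 70.9 in the control mice. The 7 probe sets of Bcl11a had log2 changes from -0.40 to 0.32 and none passed (limma, 3 with an unadjusted p under 0.05); no source used here places them relative to the deleted part, so they do not check the genotype. The sorted cells carried erythroid markers, with Slc4a1, Tfrc and Alas2 above percentile 99 of all probe sets, and so were 6 of the 7 neutrophil markers. All 7 neutrophil markers were measured, none at 0, and S100a8 had a mean of 38723 in the knockout and 39933 in the controls. On every array the value of S100a8 was the maximum, from 38113 to 40360. The summed intensity of the 7 neutrophil markers lay between 159990 and 166860 in the knockout mice and between 172880 and 173990 in the control mice, and the sums of the 4 measured pre-B markers at 6720 to 9212 in the knockout and 8952 to 10412 in the controls. Sums over the 4 basophil and mast markers were 4289 to 5959 in the knockout and 6702 to 6909 in the controls, and those over the 5 macrophage markers 8923 to 9493 in the knockout and 7751 to 8697 in the controls. Over the 4 megakaryocyte markers the sums were 4647 to 5943 in the knockout and 2028 to 2424 in the controls, a gap that came from Itga2b alone. Itga2b rose to a mean of 3520 in the knockout, against 513 in the controls, a log2 change of 2.74 ± 0.12 (SE, limma adjusted p = 0.00079). Pf4 had -0.19 ± 0.14, Gp9 0.19 ± 0.16 and Ppbp 0.32 ± 0.78, with overlapping groups and none past the test, and without Itga2b the sums overlapped, at 1322 to 2270 in the knockout and 1489 to 1886 in the controls. The part of these cells in the member values was not tested.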

How the data were processed

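RNA from 6 mice, 3 knockout and 3 control, was read on 6 arrays, per the labels' protocols as biotin-labelled cRNA on Affymetrix arrays. The authors deposited 1 table of intensity on a linear scale. No source used here names the software, background correction or scaling behind it, and there are no detection calls. The platform's annotation, updated through Entrez IDs to RefSeq of GRCm38.p6, gave 1 symbol to 34945 probe sets. Other probe sets had no single gene symbol, and 6 of 128 list genes were not analysed here for want of a match.

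Values became log2(intensity + 16), which understates changes of dim probe sets. Array log2 medians and interquartile ranges differed by at most 0.0567 and 0.0699, below the 0.1 set for normalizing again. Knockout and control were compared in R 4.3.3 by limma 3.58.1 (two-sided moderated test, Benjamini-Hochberg over all 45037 probe sets, threshold 0.05), and the fit was tested on simulated data. Precision is limited by the number of mice, and the labels do not say whether mice were littermates. The named genes are all member probe sets and, of each list, every gene past the threshold and up to 4 by p, read by the brightest probe set; the genes past it under the trend alternative, the 5 genes whose knockout values were all lower, Hspa5, Epor and Alas2 were named after their values were seen. The members and lists were chosen with earlier results of these data known. Alternatives were leaving out each mouse, the mouse number as a block, an intensity trend plus robust moderation, weights per array, quantile normalization or median centring, a pseudocount of 1 or of 64, and keeping the brightest 50% of probe sets. The megakaryocyte sum without Itga2b was added after seeing the data. Same-numbered mice did not deviate together (r across probe sets -0.0345, -0.0141 and -0.0402), so the numbers were not taken to pair them. Such values over all probe sets cannot show that no pairing exists.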

Additional observations from a re-analysis of the deposited data

How the results depend on the processing

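The number of probe sets that passed over the whole array depended on how variances were moderated and on dim probe sets. Against 63 higher and 3 lower, an intensity trend with robust moderation gave 1206 and 239, the brightest 50% of probe sets 697 and 142, a pseudocount of 64 gave 508 and 50, a pseudocount of 1 gave 38 and 0, and array weights 74 and 5. Leaving out 1 mouse gave 27 to 41 higher and 0 to 1 lower. Of the member probe sets, 7 passed as higher with the trend, 4 among the brightest 50%, 3 with a pseudocount of 64, 0 with a pseudocount of 1 and 0 to 1 without 1 mouse, and 0 fell in any of these fits. The fit to the brightest 50% left out the dim member probe sets, so its counts are out of fewer probe sets than the others. With the replicate block, which the data do not support as a pairing, 14 probe sets passed as higher and 0 as lower, and 0 members (Gcn1 1433713_at, log2 change 1.50, adjusted p = 0.274). Quantile normalization and median centring left 1 member called.

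Over 383 fits of single member probe sets, 354 kept their direction and their side of the threshold, 11 passed newly, 7 lost the call, all of Gcn1 1433713_at, and 11 changed sign, all in probe sets with a log2 change near 0. Eif2ak2 1422006_at had -0.00087 with array weights and -0.057 to 0.18 without 1 mouse. Eif2ak4 1421389_a_at had -0.10 to 0.044 without 1 mouse. Eif2ak4 1443235_at had 0.0019 after median centring, 0.052 with array weights and -0.14 to 0.14 without 1 mouse. Atf4 1439258_at had -0.25 to 0.091 without 1 mouse. The 53 ATF4 target genes, an alternative chosen after seeing the data, had 2 higher with a pseudocount of 64, 3 among the brightest 50% and 6 higher and 2 lower with the trend. Over all probe sets the same settings gave 508, 697 and 1206 higher and 50, 142 and 239 lower, against 63 and 3 in the main fit. The share over all genes was not computed for the pseudocount of 64 or the brightest 50%, so those counts are no result about the targets. The median over all probe sets stayed between -0.017 and 0.013 under every setting. Of the 28 member probe sets, 9 lay below the median intensity, where the pseudocount shrinks a change: Gcn1 1440391_at had -0.605 with a pseudocount of 1 and -0.449 with 16.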
